A study of Mus musculus with 2 samples.

Results

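Efferocytosis is the engulfment of dying cells by phagocytes, and its machinery was followed in adipose tissue macrophages (ATMs) through 9 genes of the 31053 features counted. The genes were named for their roles in engulfment, with earlier results of these data known. They are 5 receptors (Timd4, Mertk, Axl, Lrp1 and Itgav), 3 secreted bridging ligands (Gas6, Pros1 and Mfge8) and 1 intracellular adaptor (Elmo1). All 9 had unique molecular identifiers (UMIs, which mark single captured transcripts) in both libraries. The cells were CD45+Lin-Ly6Clow/-F4/80+ macrophages sorted from the epididymal fat of male C57/BL6 mice aged 8 to 12 weeks, measured by droplet-based single-cell RNA sequencing. Control mice stayed on the control diet (CD) and the others received a high fat diet (HFD) overnight. The fat pads of 3 mice were pooled into 1 library per diet, so that each diet has no replicate, animals cannot be told apart, and no test between diets was possible. Intervals below are 95% intervals that cover counting error only.

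A dying cell exposes phosphatidylserine on its surface. TIM-4, the product of Timd4, binds this lipid directly, whereas the TAM receptor kinases MERTK and AXL reach it through the bridging proteins GAS6 and protein S (Pros1), and alpha-v integrins (Itgav) reach it through MFG-E8 (Mfge8). LRP1 takes part in uptake together with opsonins, and ELMO1 works with DOCK1 to activate RAC1 and remodel actin around the corpse. TIM-4 and MERTK are known from resident macrophages in many tissues, while AXL is known as a receptor that inflammatory signals induce.

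Cells with 200 to 3500 detected genes and at most 10% mitochondrial UMIs were kept, which left 2364 of 4459 CD barcodes and 2021 of 3163 HFD barcodes. The kept CD cells held 12284010 UMIs (median 4490.5 per cell) and the kept HFD cells held 8086475 (median 2792). The libraries shared 14 barcodes, 7 of them among kept cells. Levels are given as CPM, the UMIs of a gene per 1000000 UMIs, both summed over a set of cells. The 6 overlapping gates were read from single transcripts: Lyve1+ (at least 1 UMI), Folr2+Lyve1-, Ccr2+, Lyz1-high (at least 10 Lyz1 UMIs), Plac8+ and Trem2+. In CD and HFD, respectively, they held 1172 and 415, 872 and 581, 1326 and 1131, 555 and 672, 42 and 73, and 638 and 168 cells. All 5 macrophage markers looked at (Adgre1, Csf1r, Cd68, C1qa and Mrc1) were detected in every gate of both libraries, with summed levels of 2151 to 8393 CPM. Markers of Lyve1+ resident macrophages (Folr2, Cd163, F13a1, Cbr2 and Pf4) summed to 9850 CPM in CD Lyve1+ cells and 2166 CPM in CD Lyz1-high cells. Stromal markers (Col1a1, Col3a1, Dcn and Pdgfra) gave 71.1 CPM in CD and 4.20 CPM in HFD, and 668 of the 759 CD Dcn UMIs lay in 2 cells.

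Of the 9 genes, all matched a RefSeq promoter window of GRCm38.p6, taken here as the 250 bases before the annotated start, and Elmo1 had 2 such windows. The windows printed are those of Timd4, Gas6 and Mertk, called higher in CD Lyve1+ cells in the comparison that follows, and of Axl and Itgav, called higher in HFD Trem2+ cells. They are given 5′ to 3′ on the strand of the gene, with motif matches in capitals. Motifs were chosen after the sequences were seen and both strands were searched.
Timd4 promoter, chr11:46810549-46810798, plus strand: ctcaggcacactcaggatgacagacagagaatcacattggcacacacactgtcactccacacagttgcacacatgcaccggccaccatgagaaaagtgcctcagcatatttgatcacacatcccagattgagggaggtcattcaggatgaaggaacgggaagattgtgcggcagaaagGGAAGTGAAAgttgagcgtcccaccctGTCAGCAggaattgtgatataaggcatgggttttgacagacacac
Gas6 promoter, chr8:13494536-13494785, minus strand: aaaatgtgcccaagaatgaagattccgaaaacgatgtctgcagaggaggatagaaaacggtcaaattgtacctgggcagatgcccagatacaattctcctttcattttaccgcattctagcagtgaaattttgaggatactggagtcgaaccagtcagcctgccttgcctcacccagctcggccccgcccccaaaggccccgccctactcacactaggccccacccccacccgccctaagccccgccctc
Mertk promoter, chr2:128698665-128698914, plus strand: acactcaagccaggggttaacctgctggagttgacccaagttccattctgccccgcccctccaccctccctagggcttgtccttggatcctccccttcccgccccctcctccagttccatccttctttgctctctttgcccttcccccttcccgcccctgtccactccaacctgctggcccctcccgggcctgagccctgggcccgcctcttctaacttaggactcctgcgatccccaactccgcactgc
Axl promoter, chr7:25788734-25788983, minus strand: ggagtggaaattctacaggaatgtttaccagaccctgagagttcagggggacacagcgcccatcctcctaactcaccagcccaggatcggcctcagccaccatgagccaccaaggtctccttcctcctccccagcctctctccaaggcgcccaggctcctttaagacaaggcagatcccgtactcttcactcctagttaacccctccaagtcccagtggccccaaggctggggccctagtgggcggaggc
Itgav promoter, chr2:83724147-83724396, plus strand: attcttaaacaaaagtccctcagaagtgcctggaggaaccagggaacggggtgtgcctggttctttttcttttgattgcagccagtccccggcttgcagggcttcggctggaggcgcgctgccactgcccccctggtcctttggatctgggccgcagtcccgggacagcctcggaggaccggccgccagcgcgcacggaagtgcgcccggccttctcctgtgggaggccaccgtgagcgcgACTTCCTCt
The Timd4 window held GGAAGTGAAA, a match to the PU.1-IRF composite letters GGAANNGAAA 72 bases before the start, which 2.30% of 32851 RefSeq windows hold. It also held GTCAGCA, the MAF recognition letters TGCTGAC read on the other strand, 45 bases before the start (3.81% of windows). The Itgav window held ACTTCCTC, the PU.1 letters GAGGAAGT on the other strand, 9 bases before the start (2.44% of windows). None of the 10 windows held the E-box CACGTG or the CRE letters TGACGTCA, which 6.02% and 1.55% of all windows hold. The Timd4 window had 4 CpG, the fewest of the 5 printed, where Itgav had 18. These matches describe the letters only, and no binding was measured in these libraries.

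Timd4 (ENSMUSG00000055546, chr11:46810800-46844332 in GRCm38), the direct phosphatidylserine receptor, differed widely between gates. In CD it stood at 83.2 CPM in Lyve1+ cells (75.7 to 91.3), 62.9 in Trem2+, 20.1 in Ccr2+, 18.3 in Folr2+Lyve1-, 10.3 in Lyz1-high and 3.66 in Plac8+ cells, the last from 1 UMI. In HFD the order was Lyve1+ (25.4 CPM), Folr2+Lyve1- (17.4), Trem2+ (9.72), Plac8+ (5.06), Ccr2+ (4.70) and Lyz1-high (3.92). Since gates overlap, neighbours in this order were compared on cells that belonged to 1 of the pair only. In CD, Lyve1+ cells without Trem2 exceeded Trem2+ cells without Lyve1 (log2 ratio 2.50, 1.84 to 3.24), and 386 of the 638 CD Trem2+ cells were also Lyve1+. The step from Ccr2+ to Folr2+Lyve1- turned around on such cells (-0.93, -1.39 to -0.46), so that Folr2+Lyve1- cells without Ccr2 stood above Ccr2+ cells outside that gate. In HFD no pair of neighbours differed beyond counting error for Timd4. Gates further apart did, as HFD Lyve1+ cells stood above Lyz1-high cells on non-shared cells (3.26, 2.34 to 4.25). Of all Timd4 UMIs, 81.4% of 549 in CD and 36.1% of 97 in HFD lay in Lyve1+ cells, which carried 43.7% and 17.0% of all UMIs. At a common depth of 800 UMIs per cell, 7.55% of CD Lyve1+ cells held a Timd4 UMI (24.4% unthinned), against 0.901% of Lyz1-high cells (5.77% unthinned) and 0 of 42 Plac8+ cells (2.38% unthinned), which allows a share of cells with a UMI at that depth of up to 7.14%. The median depths of these 3 gates were 4052.5, 8205 and 6337.5 UMIs.

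Timd4 is also a known gene of large peritoneal macrophages, so their markers (Gata6, F5, Icam2 and Prg4) were read beside it. All 4 were detected, at a summed 24.8 CPM in CD and 67.3 CPM in HFD. Gata6, which defines those cells, had a UMI in 6 CD and 4 HFD cells, and they held 3 of 549 and 4 of 97 Timd4 UMIs. Cells with Icam2 held 7.65% of the CD and 21.6% of the HFD Timd4 UMIs while carrying 4.65% and 7.82% of all UMIs. In HFD 1 cell without Lyve1 held 8 of the 97 Timd4 UMIs, together with 5 Icam2 UMIs and 2 of the 55 Mfge8 UMIs.

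Mertk (ENSMUSG00000014361, chr2:128698956-128802894), the TAM receptor of resident macrophages, was also highest in Lyve1+ and Trem2+ cells of CD, with a smaller span. CD levels were 57.0 CPM in Lyve1+ (50.8 to 63.7), 49.1 in Trem2+, 28.8 in Folr2+Lyve1-, 26.5 in Ccr2+, 18.3 in Plac8+ and 16.4 in Lyz1-high cells. HFD levels were 48.7 CPM in Lyve1+, 41.6 in Folr2+Lyve1-, 34.6 in Trem2+, 25.4 in Ccr2+, 22.8 in Lyz1-high and 12.7 in Plac8+ cells. The 3 upper CD steps differed beyond counting error on non-shared cells, while in HFD no step between neighbours did. In the CD step from Trem2+ to Folr2+Lyve1-, the Trem2+ side included the 386 cells that were also Lyve1+. CD Trem2+ cells without Lyve1 held Mertk at 32.4 CPM, beside the 28.8 CPM of Folr2+Lyve1- cells. Over a wider distance, HFD Lyve1+ cells stood above Lyz1-high cells on non-shared cells (1.41, 0.90 to 1.91). No cell held more than 3 Mertk UMIs, and 86.7% of CD and 86.9% of HFD Mertk-positive cells held exactly 1.

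Axl (ENSMUSG00000002602, chr7:25757273-25788705, minus strand), the other TAM receptor detected, was not ordered like Mertk. In CD its levels ran from 39.9 CPM in Lyz1-high and 46.9 in Lyve1+ to 54.6 in Ccr2+, 56.8 in Folr2+Lyve1-, 65.7 in Trem2+ and 73.2 in Plac8+ cells. Between neighbours, only the step between Ccr2+ and Lyve1+ exceeded counting error. Further apart, CD Trem2+ cells stood above Lyve1+ cells on non-shared cells (85.2 against 44.6 CPM, 0.94, 0.59 to 1.28). They also stood above Lyz1-high cells (0.94, 0.62 to 1.27), as did Plac8+ cells (0.97, 0.07 to 1.75, with 14 UMIs in the Plac8+ cells). Against all other CD cells, Axl in Plac8+ cells stood at 0.53 (-0.19 to 1.17). The CD Plac8+ gate carried 1922 CPM of stromal markers, and their part in its Axl level was not tested. In HFD, Trem2+ cells stood highest at 149 CPM (125 to 176), followed by 98.7 in Plac8+, 80.5 in Folr2+Lyve1-, 64.6 in Ccr2+, 52.3 in Lyve1+ and 47.9 in Lyz1-high cells. Axl made up 45.2% of the Axl and Mertk UMIs in CD Lyve1+ cells (41.0 to 49.4) and 70.9% in CD Lyz1-high cells (65.1 to 76.3). The share was 51.8% in HFD Lyve1+ cells, and in Trem2+ cells it was 57.2% in CD and 81.2% in HFD (74.5 to 86.8). These shares do not say which of the 2 transcripts was the more abundant, since their capture may differ. Tyro3, the remaining TAM receptor, had 0 UMIs in either library, which allows up to 0.244 CPM in CD and 0.371 CPM in HFD.

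**Figure D1:**
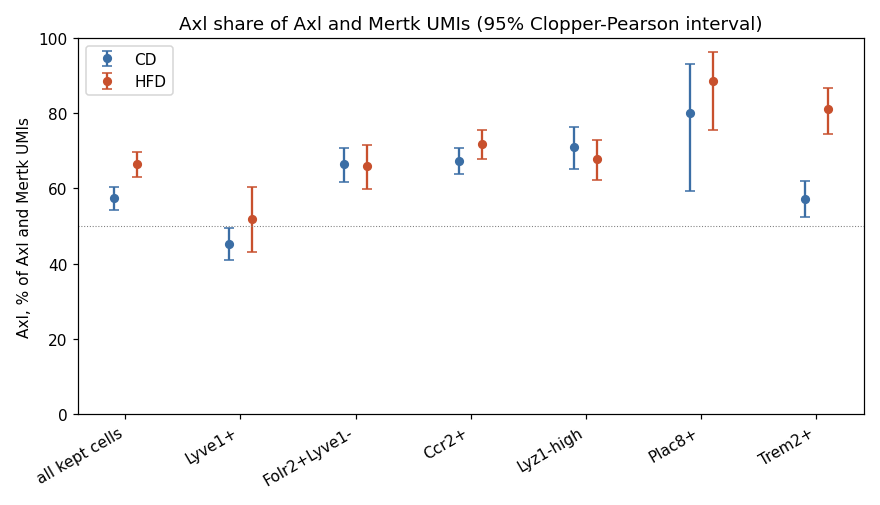
Axl as a percentage of the Axl and Mertk UMIs in all kept cells and in each gate (x axis), for CD (blue) and HFD (red), with 95% Clopper-Pearson intervals and a dotted line at 50% drawn for scale. In CD the share is 45.2% in Lyve1+ and 70.9% in Lyz1-high cells, and Trem2+ cells stand at 81.2% in HFD and 57.2% in CD.

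Lrp1 (ENSMUSG00000040249, chr10:127538161-127621148, minus strand), a large endocytic receptor, was nearly level across gates. Its CD range was 146 CPM (Plac8+) to 179 CPM (Folr2+Lyve1-), and its HFD range was 133 CPM (Lyz1-high) to 174 CPM (Trem2+). No neighbouring gates differed beyond counting error in either library, although Lrp1 was among the better sampled genes with 2055 CD and 1138 HFD UMIs. Further apart, HFD Trem2+ cells stood above Lyve1+ (0.37, 0.03 to 0.70) and Lyz1-high cells (0.43, 0.10 to 0.74) on non-shared cells. In CD the same pairs gave 0.18 (-0.03 to 0.39) and -0.02 (-0.20 to 0.16). Itgav (ENSMUSG00000027087, chr2:83724397-83806916), the alpha-v integrin chain, was arranged the other way in CD. It was lowest in CD Lyve1+ cells at 10.2 CPM (7.72 to 13.3), with 14.4 in Trem2+, 17.5 in Ccr2+, 18.1 in Folr2+Lyve1-, 19.7 in Lyz1-high and 25.6 in Plac8+ cells. HFD levels were 18.3 CPM in Folr2+Lyve1-, 20.3 in Lyve1+, 20.6 in Ccr2+, 21.5 in Lyz1-high, 35.4 in Plac8+ and 41.0 in Trem2+ cells.

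Among the ligands, Gas6 (ENSMUSG00000031451, chr8:13465374-13494490, minus strand), which bridges phosphatidylserine to the TAM receptors, was the best sampled gene of the set, with 5040 CD and 1160 HFD UMIs. In descending order, CD levels were 656 CPM in Lyve1+ (634 to 678), 496 in Trem2+, 281 in Folr2+Lyve1-, 261 in Ccr2+, 172 in Plac8+ and 99.98 in Lyz1-high cells. On non-shared cells the step from Ccr2+ to Plac8+ turned around (-0.65, -1.23 to -0.01, with 24 UMIs in the Plac8+ cells). Stromal markers stood at 1922 CPM in the CD Plac8+ gate, and their part in that step was not tested. The other CD steps kept their direction beyond counting error. The Trem2+ side of the step to Folr2+Lyve1- again included the 386 Lyve1+ cells. CD Trem2+ cells without Lyve1 held Gas6 at 285 CPM, beside the 281 CPM of Folr2+Lyve1- cells. HFD levels were 340 CPM in Lyve1+ (310 to 372), 195 in Folr2+Lyve1-, 121 in Trem2+, 70.8 in Plac8+, 68.5 in Ccr2+ and 27.2 in Lyz1-high cells. Thinned to 800 UMIs, 43.0% of CD Lyve1+ cells held a Gas6 UMI and 8.83% of CD Lyz1-high cells did (86.9% and 39.1% unthinned). The corresponding HFD shares were 29.6% and 2.23% (58.3% and 14.3% unthinned). Pros1 (ENSMUSG00000022912, chr16:62854307-62929346), the protein S gene, was flatter, at 124 CPM in CD Lyve1+ cells, 102 in Trem2+, 86.1 in Folr2+Lyve1-, 79.4 in Ccr2+, 72.9 in Lyz1-high and 47.6 in Plac8+ cells. In HFD it was 93.7 CPM in Lyve1+, 82.8 in Folr2+Lyve1-, 59.4 in Trem2+, 56.8 in Lyz1-high, 55.7 in Ccr2+ and 43.0 in Plac8+ cells, where no neighbours differed beyond counting error. HFD Lyve1+ cells stood above Lyz1-high cells for Pros1 on non-shared cells (0.93, 0.57 to 1.28).

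Mfge8 (ENSMUSG00000030605, chr7:79133768-79149060, minus strand), the bridge to alpha-v integrins, was near the limit of detection, with 122 CD and 55 HFD UMIs. Its CD levels ranged from 4.20 CPM in Lyz1-high to 15.7 CPM in Trem2+ cells, and its HFD levels from 2.39 CPM in Lyz1-high to 13.1 CPM in Lyve1+ cells. In CD 1 cell held 13 of the 122 UMIs. This cell carried 1 Trem2 UMI, 25 UMIs of the endothelial markers Pecam1, Kdr, Flt1 and Cdh5, and 4 stromal UMIs. The 4 endothelial markers gave 12.5 CPM in all kept CD cells and 16.0 CPM in CD Trem2+ cells, and without cells that carried any of them the log2 ratio of Mfge8 in CD Trem2+ over other cells went from 1.07 to 0.71. Elmo1 (ENSMUSG00000041112, chr13:20090596-20608353), the engulfment adaptor, varied little between gates in CD, at 32.6 to 41.3 CPM outside the 3 UMIs of Plac8+ cells. HFD levels were 17.6 to 35.4 CPM, and no neighbouring gates differed beyond counting error in either library. Among gates further apart, HFD Plac8+ cells stood above Lyz1-high cells on non-shared cells (1.497, 0.48 to 2.38, with 12 UMIs in the Plac8+ cells). In CD that pair did not differ beyond counting error. CD Lyve1+ cells stood above Lyz1-high cells (0.496, 0.14 to 0.86), where HFD gave 0.61 (-0.13 to 1.29). Against all other HFD cells, Lyz1-high cells stood at -0.82 (-1.26 to -0.40).

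**Figure D2:**
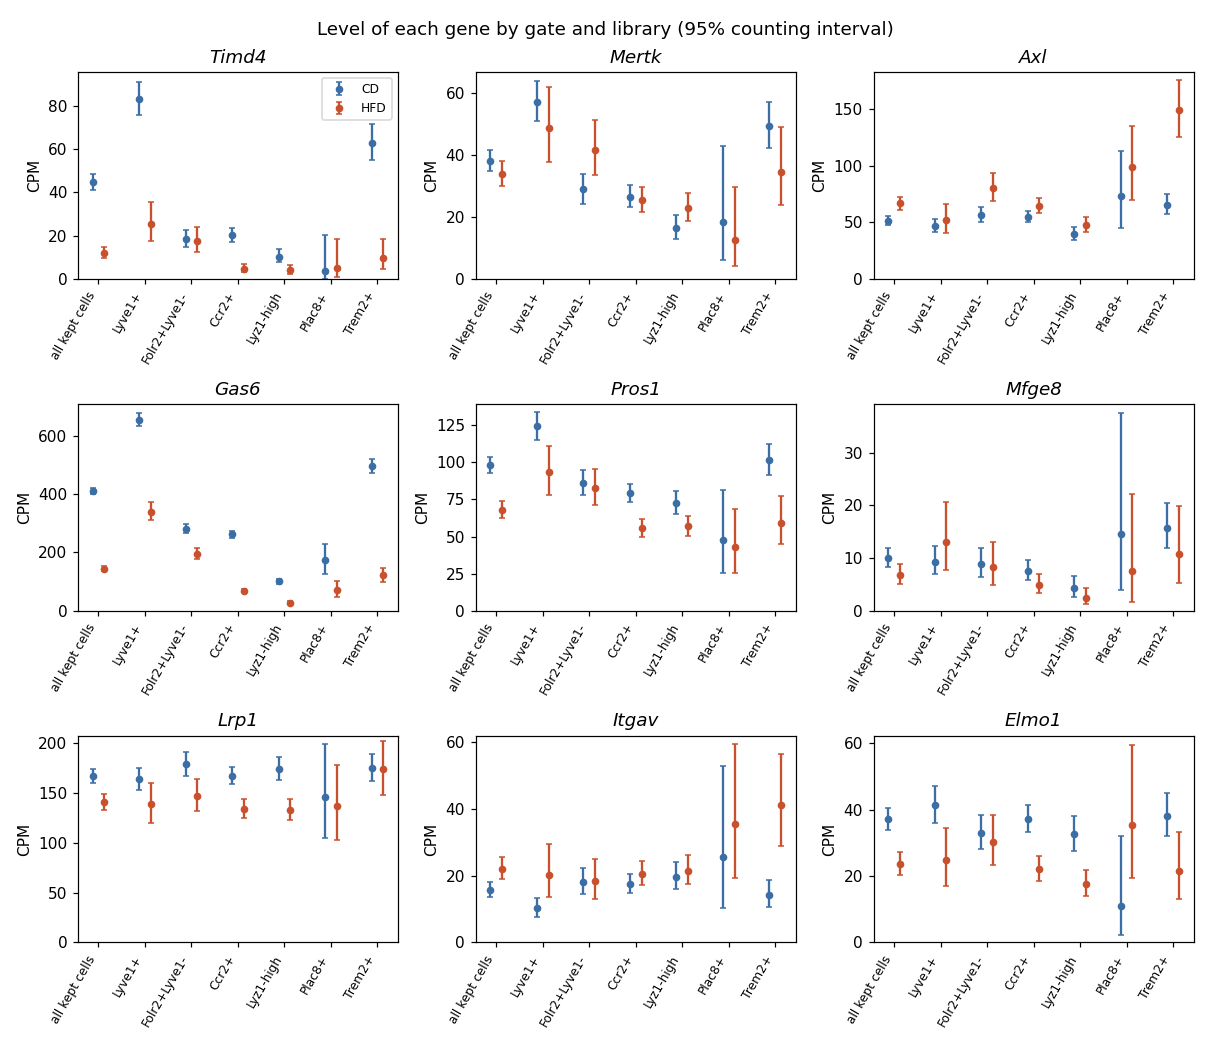
CPM (y axis, from 0, scaled per gene) of the 9 genes in all kept cells and in each gate (x axis), for the CD (blue) and HFD (red) libraries; bars are 95% Poisson intervals of the counts. Timd4, Mertk, Gas6 and Pros1 are highest in CD Lyve1+ cells, Lrp1 is nearly level, and Axl and Itgav are highest in HFD Trem2+ cells.

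Each gate was next set against all other kept cells of its library, and a gene was called where the ratio reached 2-fold in either direction among genes with at least 50 UMIs. In CD Lyve1+ cells, Timd4 (83.2 against 14.8 CPM, log2 ratio 2.50, 2.18 to 2.82), Gas6 (656 against 220 CPM, 1.58, 1.49 to 1.67) and Mertk (57.0 against 23.3 CPM, 1.29, 1.01 to 1.58) were called higher. This is 3 of 9 genes, where 4.77% of all 9081 genes were called higher and 3.33% lower; no member was called lower. Pros1 stood at 0.68 (0.51 to 0.85) and Itgav at -0.96 (-1.44 to -0.50), short of 2-fold. The intervals of Axl, Lrp1 and Mfge8 included 0. Averaging per-cell CPM instead of summing UMIs kept Timd4 (1.57) but left Gas6 at 0.98 and Mertk at 0.998, under the 2-fold line. With each cell in 1 gate only, Mertk stood at 0.985.

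In HFD Lyve1+ cells, Gas6 (340 against 103 CPM, 1.72, 1.55 to 1.89), Timd4 (25.4 against 9.24 CPM, 1.46, 0.82 to 2.08) and Mfge8 (13.1 against 5.51 CPM, 1.24, 0.35 to 2.09) were called higher. Again 3 of 9 were called higher and 0 lower, where 3.44% and 2.59% of 8150 genes were. Mertk stood at 0.66 (0.24 to 1.07) and Pros1 at 0.57 (0.28 to 0.86). With per-cell CPM averaged, Gas6 came to 0.95, under the 2-fold line.

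In Lyz1-high cells, members were called in the lower direction only. In CD, Timd4 (log2 ratio -2.69, -3.15 to -2.27), Gas6 (-2.60, -2.74 to -2.46), Mfge8 (-1.69, -2.46 to -0.99) and Mertk (-1.66, -2.03 to -1.30) were called lower than in other cells. In HFD the same 4 genes were called lower, with Gas6 at -3.45 (-3.73 to -3.18), Timd4 at -2.53 (-3.36 to -1.78), Mfge8 at -2.40 (-3.50 to -1.42) and Mertk at -1.07 (-1.44 to -0.71). With at least 1000 genes per cell, HFD Mertk stood at -0.78, short of 2-fold. Lower calls made up 11.5% of all genes in CD and 9.28% in HFD, and higher calls, which included no member, made up 3.53% and 2.18%. Depth differed between the gates, since Lyz1-high cells had median UMI counts of 8205 in CD and 6609 in HFD.

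In Trem2+ cells of HFD, Axl (log2 ratio 1.41, 1.12 to 1.69) and Itgav (1.06, 0.50 to 1.59) were called higher than in other cells and no member lower, where 2.12% of genes were called higher and 5.33% lower. In CD only Mfge8 (1.07, 0.53 to 1.60) was called higher and none lower, where the shares were 0.496% and 1.46%, and without cells carrying endothelial markers the value was 0.71, as given above. CD Axl stood at 0.55 (0.31 to 0.78) and CD Itgav at -0.18 (-0.67 to 0.29). The Itgav call in HFD was lost without the 5% of cells with the most UMIs (0.79).

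Between diets, Timd4 and Gas6 were lower in HFD. Over all kept cells Timd4 stood at 11.995 CPM in HFD and 44.7 CPM in CD (log2 ratio -1.90, -2.22 to -1.58), and Gas6 at 143 against 410 CPM (-1.52, -1.61 to -1.42). These were the 2 of 9 genes called lower and none was called higher, where 3.49% of 9929 genes were called lower and 1.4% higher. Elmo1 (-0.66), Mfge8 (-0.55), Pros1 (-0.53) and Lrp1 (-0.25) were lower by less than 2-fold, with intervals below 0. Mertk (-0.17, -0.39 to 0.05) did not differ beyond counting error, and Axl (0.39, 0.22 to 0.55) and Itgav (0.49, 0.19 to 0.80) were higher by less than 2-fold. The composition of the libraries differed at the same time, with Lyve1+ cells at 49.6% of CD and 20.5% of HFD kept cells, and the HFD cells were shallower. With per-cell CPM averaged instead, Gas6 stood at -0.93.

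The difference in Timd4 was also present within Lyve1+ cells, at 25.4 CPM in HFD and 83.2 CPM in CD (-1.71, -2.25 to -1.21). It was the only member called lower there, and none was called higher, where 2.5% of 7969 genes were called lower and 1.44% higher. The Lyve1+ cells differed in their Lyve1 UMIs and in depth. Of them, 548 of 1172 in CD and 86 of 415 in HFD held 3 or more Lyve1 UMIs, and 400 and 241 held 1. Their median depths were 4052.5 UMIs in CD and 2299 in HFD, so these counts do not show that the Lyve1 level differed. The part of Lyve1 UMIs and of depth in the Timd4 ratio was not tested, and ratios by Lyve1 UMIs are given below. Gas6 (340 against 656 CPM, -0.95, -1.09 to -0.81), Elmo1 (-0.74, -1.31 to -0.22), Pros1 (-0.41, -0.69 to -0.14) and Lrp1 (-0.24, -0.47 to -0.01) were lower by less than 2-fold. Itgav (20.3 against 10.2 CPM, 0.99, 0.28 to 1.67) was higher, while Mertk (-0.23, -0.63 to 0.16) and Axl (0.16, -0.24 to 0.54) did not differ beyond counting error. The 5 resident markers moved too, from a summed 9850 CPM in CD to 6723 CPM in HFD Lyve1+ cells, with 4 of them lower in HFD, such as Folr2 at 794 against 1931 CPM, and Cd163 higher at 488 against 409 CPM, and their part in the result was not tested. In Folr2+Lyve1- cells Timd4 stood at 17.4 CPM in HFD and 18.3 CPM in CD (-0.08, -0.66 to 0.49). Mertk (0.53, 0.14 to 0.92) and Axl (0.50, 0.22 to 0.78) were higher there in HFD, and Gas6 was lower (-0.53, -0.69 to -0.37). The cells of this gate had a median of 4995 UMIs in CD and 2522 in HFD. With gates read after thinning, its ratios were -0.85 for Timd4, 0.24 for Mertk and 0.07 for Axl. The part of depth in these values was not tested.

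In Lyz1-high cells Gas6 (-1.88, -2.17 to -1.59) and Timd4 (-1.39, -2.26 to -0.59) were called lower in HFD, 2 of the 8 members with enough UMIs. Lower calls made up 1.6% of 8149 genes there and higher calls, with no member, 0.957%. Of the Lyz1-high cells, 123 of 555 in CD and 54 of 672 in HFD were also Lyve1+. In those without Lyve1, Timd4 was not lower in HFD, at 2.99 CPM in CD (11 UMIs) and 3.63 CPM in HFD (15 UMIs). Gas6 stood there at 60.9 CPM in CD and 23.0 CPM in HFD. In Ccr2+ cells Timd4 (-2.10, -2.72 to -1.53) and Gas6 (-1.93, -2.09 to -1.78) were also lower, but these gates overlap with Lyve1+. In Ccr2+ cells without Lyve1, Timd4 stood at 7.28 CPM in CD (42 UMIs) and 3.52 CPM in HFD (19 UMIs). Gas6 stood in them at 137 CPM in CD and 47.7 CPM in HFD. When each cell was placed in 1 gate only, Ccr2+ kept the cells in no other gate (85 in CD and 214 in HFD). The Ccr2+ ratios were then -0.02 for Timd4 and 0.11 for Gas6. They are given without intervals and rest on these few cells, so they do not show that the diets were alike there. Mertk went from -0.06 in the whole gate to 2.64 in this setting. In Plac8+ cells 3 members reached 50 UMIs, and Gas6 stood at 70.8 CPM in HFD and 172 CPM in CD (-1.28, -2.01 to -0.58). The CD Plac8+ cells also carried 1922 CPM of stromal markers, against 5.06 CPM in HFD, and without cells carrying a stromal UMI the Gas6 ratio was -1.31. With gates read after thinning it was 0.050.

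**Figure D3:**
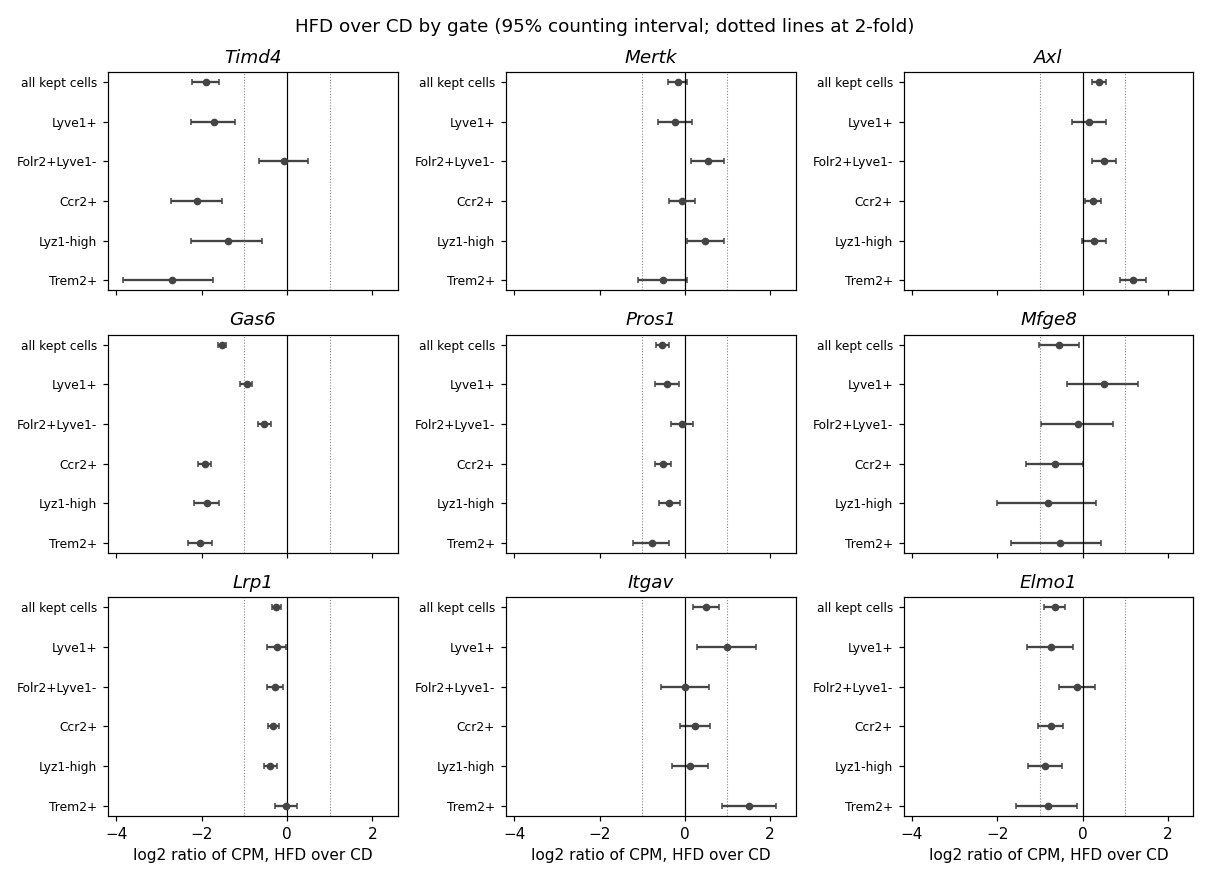
Log2 ratio of CPM in the HFD over the CD library (x axis) for the 9 genes in all kept cells and in 5 gates (y axis), with 95% conditional binomial intervals of the counts and dotted lines at 2-fold. Gas6 and Timd4 lie left of 0, with Timd4 at -0.08 in Folr2+Lyve1- cells, and Axl and Itgav lie right of the 2-fold line in Trem2+ cells only.

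Trem2+ cells, which carry a receptor of lipid-associated macrophages, gave differences between diets in both directions. Axl was 149 CPM in HFD and 65.7 CPM in CD (1.18, 0.87 to 1.49) and Itgav was 41.0 against 14.4 CPM (1.52, 0.87 to 2.15), both called higher. Timd4 (9.72 against 62.9 CPM, -2.69, -3.84 to -1.74) and Gas6 (121 against 496 CPM, -2.04, -2.32 to -1.76) were called lower. Higher calls made up 2.49% and lower calls 6.14% of 6859 genes in this comparison. The gate itself held different cells in the 2 libraries, since 386 of 638 CD Trem2+ cells but 32 of 168 HFD Trem2+ cells were Lyve1+. Without Lyve1, 252 CD and 136 HFD Trem2+ cells remained. Among them Timd4 stood at 12.7 CPM in CD (20 UMIs) and 8.91 CPM in HFD (7 UMIs). Gas6 was 285 CPM in CD and 91.6 CPM in HFD, Axl 85.2 and 162 CPM, and Itgav 20.4 and 43.3 CPM. The 2-fold call was not repeated on these cells. In the whole gate, lipid-associated markers (Cd9, Lpl, Spp1, Gpnmb, Cd63, Fabp5 and Lgals3, all detected) summed to 2174 CPM in CD and 6708 CPM in HFD. Over all kept cells they summed to 2150 and 3331 CPM, so the CD gate stood close to all CD cells. Lgals3 alone gave 897 CPM of the CD and 3835 CPM of the HFD sum in Trem2+ cells. Over all kept cells Lgals3 stood at 885 CPM in CD and 1988 CPM in HFD. The 5 resident markers summed to 8271 CPM in CD and 3987 CPM in HFD Trem2+ cells. The 4 peritoneal markers summed to 34.5 CPM in CD and 120 CPM in HFD, and the part of these lists in the Axl and Itgav values was not tested. After thinning, 11.4% of HFD and 3.92% of CD Trem2+ cells held an Axl UMI (40.5% and 25.2% unthinned).

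Levels were then followed along the number of Lyve1 UMIs per cell. In CD, Timd4 stood at 14.8 CPM with no Lyve1 UMI, 58.0 with 1, 73.3 with 2, 99.3 with 3 to 4 and 107 with 5 or more. Gas6 stood at 220, 560, 666, 771 and 667 CPM in the same bins. Mertk stepped from 23.3 CPM to between 52.9 and 61.4 CPM and stayed there, and Axl lay between 38.8 and 54.9 CPM throughout. In HFD, Timd4 stood at 9.24, 12.4, 18.4, 66.8 and 66.6 CPM, with 62, 10, 5, 11 and 9 UMIs behind these values. Between diets, the Timd4 ratio was -2.22 (-3.33 to -1.28) in cells with 1 Lyve1 UMI, -1.997 (-3.67 to -0.70) in cells with 2, and -0.63 (66.7 against 103 CPM, -1.36 to 0.02) in cells with 3 or more. HFD cells were shallower within these bins, with a median of 2056 UMIs against 3832 in CD at 1 Lyve1 UMI. At 2 Lyve1 UMIs the medians were 2266.5 in HFD and 3505 in CD. The same bin therefore does not stand for the same Lyve1 level in both libraries. Whether the Timd4 ratios differ from each other, and the part of depth in them, was not tested. Gas6 gave -1.11 (-1.33 to -0.89) at 1 Lyve1 UMI, -0.60 (-0.89 to -0.31) at 2 and -0.62 (-0.88 to -0.38) at 3 or more. Folr2, read beside Timd4 and Gas6, gave -1.44, -1.03 and -0.74.

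**Figure D4:**
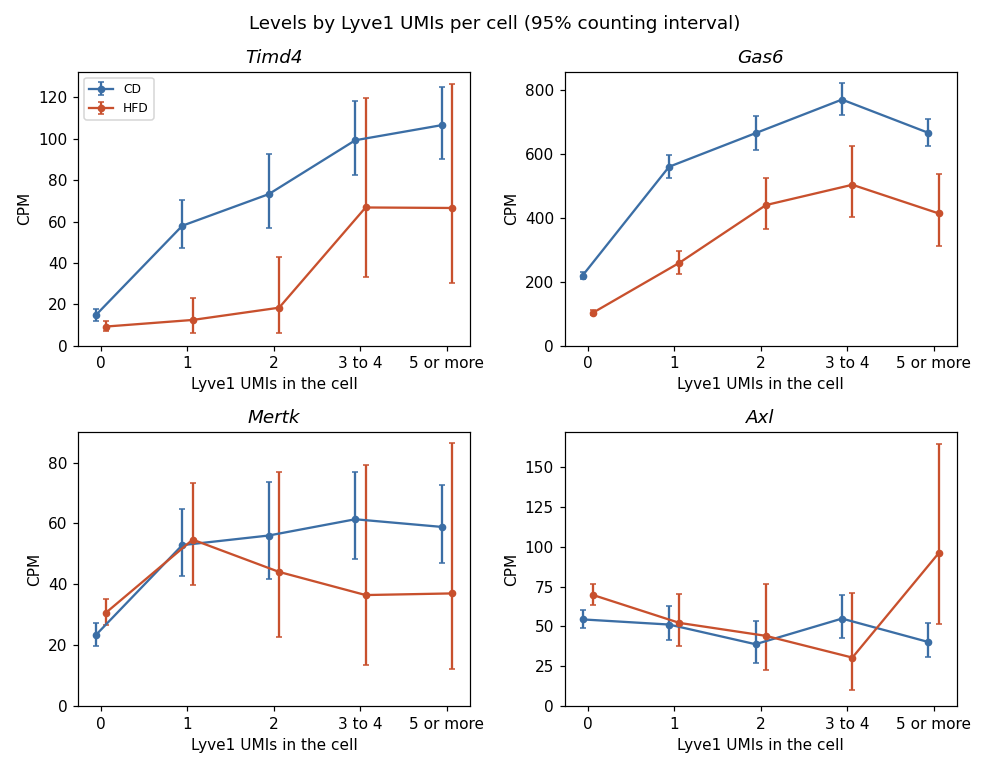
CPM of Timd4, Gas6, Mertk and Axl (y axes, from 0, scaled per gene) in kept cells binned by their Lyve1 UMIs (x axis), for CD (blue) and HFD (red), with 95% Poisson intervals. CD Timd4 goes from 14.8 to 107 CPM over the bins, and HFD Timd4 from 9.24 to 66.6 CPM.

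Within CD Lyve1+ cells, the 286 cells with a Timd4 UMI and the 886 without were compared. Gas6 was 768 CPM in the first and 619 CPM in the second (log2 ratio 0.31, 0.21 to 0.42), and Pros1 was 146 and 117 CPM (0.31, 0.06 to 0.56). Mertk was 58.1 and 56.6 CPM (0.04, -0.35 to 0.42), a difference within counting error. Axl was 38.5 and 49.7 CPM (-0.37, -0.84 to 0.08). Icam2 was 22.6 and 3.96 CPM (2.52, 1.60 to 3.49), while Gata6 had 1 UMI on each side. The Timd4-positive cells were somewhat deeper, with a median of 4352 UMIs against 3948. In HFD only 28 Lyve1+ cells held Timd4, and every member's interval in this split included 0.

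Whether a receptor and its ligand occur in the same cell was read after thinning to 800 UMIs. Thinning left out 30 CD and 147 HFD cells. The cells with both genes are set beside the number that the product of the 2 shares gives. Intervals of the ratio take this product as known, so they leave out the counting error of the 2 shares. Mertk and Gas6 occurred together in 33 CD cells against 26.2 from the product (ratio 1.26, 0.87 to 1.77) and in 16 HFD cells against 11.7 (1.36, 0.78 to 2.21). Mertk and Pros1 gave 10 against 7.34 in CD and 5 against 4.76 in HFD. Axl and Gas6 gave 28 against 28.7 in CD (0.97, 0.65 to 1.40) and 7 against 16.6 in HFD (0.42, 0.17 to 0.87), where the interval lay below 1. With the 5% of cells with the most UMIs left out, that HFD ratio was 0.96. Itgav and Mfge8 were found together in 0 cells of either library, against a product of 0.18 in each, so that this depth cannot show their relation.

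Timd4 and Gas6 were found together in 53 CD cells against 35.7 (1.48, 1.11 to 1.93), but within CD Lyve1+ cells the numbers were 41 and 37.8 (1.08, 0.78 to 1.46). Over the alternatives the CD ratio ran from 1.20 to 1.56, and with a mitochondrial limit of 20% no pair exceeded its product beyond counting error. Timd4 and Mertk, the resident receptors, shared 5 CD cells against 3.93 and 4 HFD cells against 0.86 (4.66, 1.27 to 11.9), and with another random draw of the thinning the HFD ratio was 1.16. Mertk and Axl, the TAM pair, shared 1 CD cell against 3.16 (0.32, 0.01 to 1.76) and 5 HFD cells against 3.40. Lrp1 and Elmo1 shared 14 CD cells against 8.78 (1.59, 0.87 to 2.67) and 6 HFD cells against 3.93. Within Lyve1+ cells the intervals of all 8 pairs included 1 in both libraries.

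**Figure D5:**
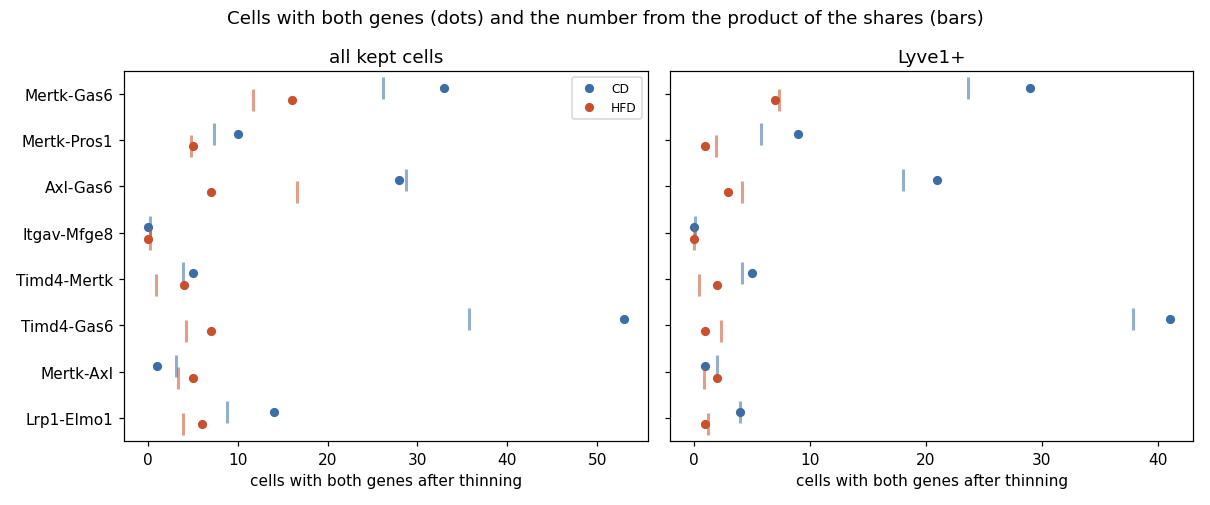
Number of cells (x axis) with both genes of each of the 8 pairs (y axis) after thinning to 800 UMIs, in all kept cells (left) and Lyve1+ cells (right), for CD (blue) and HFD (red). Dots are observed cells and vertical bars the number from the product of the shares; Timd4-Gas6 in CD stands at 53 against 35.7 over all cells and 41 against 37.8 within Lyve1+ cells.

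The wider efferocytosis list held 54 further genes (other receptors, bridging proteins, engulfment and corpse-processing genes, and brakes). Of the 42 with enough UMIs in CD, 5 were called higher in Lyve1+ cells and 2 lower, where 4.77% and 3.33% of all genes were, with a median log2 ratio of 0.17, beside 0.11 over all genes tested. In HFD 4 of 43 were higher and 0 lower, where 3.44% and 2.59% of all genes were. The highest in both libraries were Stab1, a scavenger receptor for phosphatidylserine (1.63 in CD, 1.54 in HFD), Abca1, the cholesterol exporter (1.31 and 1.39), and Rubcn, a gene of LC3-associated phagocytosis (1.30 and 1.11). The lowest were Thbs1, the thrombospondin bridge (-1.80 and -0.77), the GTPase gene Rac2 (-0.62 and -0.80) and Lgals3 (galectin-3, -1.14 and -0.44). Between diets in Lyve1+ cells, 2 of 41 were called higher and 1 lower in HFD, where 1.44% and 2.5% of all genes were. Thbs1 stood at 111 CPM in HFD and 9.87 CPM in CD (3.49, 3.03 to 3.97), Lgals3 at 1534 against 529 CPM (1.54, 1.45 to 1.62) and the integrin gene Itgb5 at 24.7 against 13.03 CPM (0.92, 0.29 to 1.53). At the other end, Dock1, the partner of ELMO1, stood at 16.7 CPM against 36.5 CPM (-1.13, -1.82 to -0.50), Rac2 at -0.71 (-0.95 to -0.47) and the scavenger receptor gene Scarb1 at -0.69 (-1.82 to 0.28).

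Over the 12 gate-by-library levels, which share cells and libraries, Gas6 was most like Folr2 (Pearson r 0.995), Csf1r (0.994) and Igfbp4 (0.989) among 4314 genes, on the log2(CPM + 10) scale. Folr2 itself defines the Folr2+Lyve1- gate, so its level there is set in part by the gating. Timd4 was most like Tns1 (0.972), Agtrap (0.972) and Aldh7a1 (0.971), Mertk like Agap3 (0.979), Hip1 (0.968) and Gna12 (0.966), and Pros1 like Ap2a2 (0.974), Wwp2 (0.971) and Aldh7a1 (0.964). Axl was most like Stard3 (0.934), Aprt (0.927) and Dnajb11 (0.924), and Itgav like Psmb5 (0.960), Cct8 (0.959) and Tomm20 (0.957). Mfge8 was most like Dynlt1f (0.958), Tmx1 (0.958) and P2ry6 (0.936), Lrp1 like Mrpl11 (0.908), Rnps1 (0.905) and Ppp2r1a (0.891), and Elmo1 like Ppie (0.922), Nudt16l1 (0.900) and Slc28a2 (0.897). Among the members, Timd4 and Pros1 were closest (0.927), followed by Timd4 and Gas6 (0.880), Mertk and Pros1 (0.836), and Axl paired best with Itgav (0.766). With 12 overlapping points these values are descriptions.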

How the data were processed

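Macrophages sorted from epididymal fat were profiled with 10x Chromium 3' chemistry, 1 library of 3 pooled mice per diet. The authors deposited whole-number UMI counts for each gene in each barcode; the submitters' processing notes name Cell Ranger 3.0.2, and reads were aligned to mm10. Cells with 200 to 3500 genes and at most 10% mt- UMIs were kept. The lower limit on genes and the mitochondrial limit are those of the study's methods, and a fixed upper limit stood in for its quartile-based one. Its limit on UMIs per gene and its removal of clusters were not applied. No doublet caller was run; the upper limit on genes and an alternative without the 5% of cells with the most UMIs stood in for one. UMIs were summed per gate and expressed as CPM with exact Poisson intervals. Ratios carry exact conditional binomial intervals and shares Clopper-Pearson intervals at the 95% level, and they say nothing of animal-to-animal spread. Calls were ratios of at least 2-fold among genes with at least 50 UMIs over both arms. A count of 0 was read as allowing up to 3 UMIs. Shares and co-detection used cells thinned to 800 UMIs. The interval script was tested on simulated counts drawn from the Poisson model that the intervals assume. They held no added spread between cells or animals, so the test checks the arithmetic only. Wider-list genes were named as the 3 highest and 3 lowest Lyve1+ over Lyve1- ratios of the same sign in both libraries, and the 3 highest and 3 lowest HFD over CD ratios in Lyve1+ cells. Likeness was read over genes with at least 500 UMIs. The members, gates and lists were chosen with earlier results of these data known, and the alternative without cells with stromal UMIs was added after the data were seen. Positions come from GENCODE and promoters from RefSeq, both on GRCm38. Python 3.11.15 with numpy 2.4.6, scipy 1.17.1, pandas 2.3.3 and matplotlib 3.10.9 was used.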

Additional observations from a re-analysis of the deposited data

Results flagged for a closer look

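Against all other cells of its library, the Folr2+Lyve1- gate lay on opposite sides of 0 in the 2 libraries for 4 genes. The log2 ratios were -1.77 in CD and 0.80 in HFD for Timd4, -0.62 and 0.43 for Mertk, -0.82 and 0.65 for Gas6, and -0.30 and 0.40 for Pros1. Over all genes tested for this gate, 57.4% lay below 0 in CD and 45.0% in HFD, with medians of -0.05 and 0.03. With gates read after thinning, the CD ratios of all 4 were above 0 (0.78 for Timd4, 0.57 for Mertk, 1.004 for Gas6 and 0.36 for Pros1), on the same side as in HFD. Cells whose Lyve1 UMIs were lost in thinning then entered the gate. In CD it held 246 Timd4 and 2468 Gas6 UMIs, against 91 and 1398 at full depth. The CD Lyve1+ gate went from 447 to 204 Timd4 UMIs. With 1 library per diet the difference was not tested. The cells that the gate was set against differed, since 1172 of 2364 CD cells and 415 of 2021 HFD cells were Lyve1+. The Folr2+Lyve1- levels themselves were 18.3 CPM in CD and 17.4 CPM in HFD for Timd4, 28.8 and 41.6 CPM for Mertk, 281 and 195 CPM for Gas6, and 86.1 and 82.8 CPM for Pros1.

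Barcodes left out by the cell filters (2095 in CD and 1142 in HFD) also carried these transcripts. Axl stood at 62.1 CPM in the HFD barcodes left out (48.2 to 78.9) and at 39.4 CPM in the CD ones (32.2 to 47.6), on the same side as in the kept cells.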

How the results depend on the processing

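No paired analysis was possible because each diet had 1 library, and leaving out a replicate was not possible for the same reason. Of 595 recomputed values of the 46 ratios of 2-fold or more (all gates, up to 13 alternatives each), 591 kept their direction and 55 came under 2-fold. The 4 that changed sign were Timd4 in CD Folr2+Lyve1- over other cells (0.78) and Gas6 in Plac8+ HFD over CD (0.050), both with gates read after thinning, and Mfge8 in CD Ccr2+ over other cells (0.22) and Gas6 in Ccr2+ HFD over CD (0.11), both with each cell in 1 gate only. Those settings put other cells in the gates; beyond this the cause was not tested.

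Counts of the 9 members past 2-fold moved by over 1.5 times as follows. In CD Trem2+ over other cells, the 1 higher call became 0 with a mitochondrial limit of 20%, without cells with an endothelial UMI, without cells with a stromal UMI, without the 5% of cells with the most UMIs, with gates at 2 UMIs and with per-cell CPM averaged. In HFD Trem2+ cells, 2 higher calls became 1 with the 20% limit, with at least 1000 genes, without the 5% of cells with the most UMIs and with each cell in 1 gate. In Lyve1+ over other cells, 3 higher calls became 1 in CD with per-cell CPM averaged and 5 in HFD with gates on thinned UMIs. Between diets, lower calls went from 2 to 1 in all cells with per-cell CPM averaged, from 1 to 2 in Lyve1+ cells with at least 1000 genes and with gates at 2 UMIs, from 2 to 4 in Trem2+ cells with gates at 2 UMIs, and from 2 to 1 in Lyz1-high cells with each cell in 1 gate. With gates on thinned UMIs, Lyz1-high cells gave 0 lower calls, as neither gene then reached 50 UMIs, and Trem2+ cells gave 1 higher call instead of 2.

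The number of the 8 pairs found together above the product of their shares was 1 in each library. In CD it was 2 at 1500 UMIs, 3 with no thinning, 0 with the 20% limit, 2 with another seed and 2 without cells with an endothelial UMI. In HFD it was 0 at 1500 UMIs, with no thinning, with the 20% limit, with another seed and without cells with a Gata6 UMI, and 2 without cells with an endothelial UMI or with a stromal UMI. These counts rest on few cells, and other gene pairs were not read beside them. The cause of these changes was not tested.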

Other observations

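In CD, the barcodes left out by the filters held Gas6 at 776 CPM (743 to 810), Mertk at 70.2 CPM (60.6 to 80.9) and Pros1 at 133 CPM (120 to 148), where the kept CD cells held 410, 38.0 and 98.1 CPM. In HFD the values were 440 CPM for Gas6, 57.5 CPM for Mertk and 103 CPM for Pros1, against 143, 33.8 and 68.1 CPM in kept cells. Timd4 was at 40.8 CPM in CD (33.6 to 49.2) and 25.0 CPM in HFD (16.5 to 36.4) among them, against 44.7 and 11.995 CPM in kept cells. Lrp1 stood at 168 CPM in CD and 169 CPM in HFD among the barcodes left out, and at 167 and 141 CPM in the kept cells.

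UMIs per positive cell differed between the genes. Of the CD cells with Gas6, 26.8% held exactly 1 UMI, and of those in HFD 59.8% did. For Timd4 the shares were 71.5% and 80.6%, and for Mfge8 95.3% and 98.1%.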
